A study of Homo sapiens with 18 samples.

Results

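The regions described here were 9889 stretches of open chromatin at transcription start sites that carried an ATAC-seq peak in every one of 9 libraries of K562 cells. They were chosen by measured values. Overlapping peak intervals from all 9 libraries were joined into 85549 regions, and 26984 of these held a peak in all 9 libraries. The 9889 members are those whose highest summit lay within 1 kb of the start of a gene in the RNA-seq table, and the other 17095 constant regions served for comparison. A start site whose peak was lost in a single library could not be a member, so the presence of a peak in all lines is a property of the rule and not a finding.

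K562 is a human cell line from a chronic myelogenous leukemia, and it does not express the transcriptional corepressor BASP1. V-K562 was the control line. Wild-type BASP1 (wtBASP1) was expressed in B-K562, and in G-K562 the mutant BASP1-G2A, in which the N-terminal glycine that is myristoylated has been replaced. All 3 were stably transfected pools kept under G-418, so each line is 1 pool and its libraries are replicates of that pool. ATAC-seq and RNA-seq were each performed on 3 replicates per line, and the comparisons ask how start-site accessibility and the RNA of the same genes differed between lines that make neither protein, wtBASP1 or BASP1-G2A.

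In ATAC-seq a transposase cuts and tags DNA where nucleosomes are absent or loosely held. The starts of active genes are usually kept open by transcription factors and the transcription machinery, and in mammals many of them lie in CpG islands, which are rich in G, C and the dinucleotide CG and are open in most cell types. BASP1 acts at promoters together with WT1, a zinc finger transcription factor, and is known to draw histone deacetylases to them.

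The height used throughout is the authors' Peak Val, the number of overlapping sequence tags at the summit of a peak, counted after every library had been reduced to the same number of tags. It was compared between lines after scaling by a trimmed mean. A change was called where limma gave a Benjamini-Hochberg adjusted p of at most 0.05 over all regions tested together with a difference of at least 2-fold, and log2 fold changes are given ± SE.

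Promoter sequence next to the start is printed below for the members with the largest changes, for AREG and for the least variable members. Each run is on the strand of the gene and reads 5′ to 3′ towards the start, over at most 120 bases, with bases of annotated exons left out. Capitals mark matches to the searched motifs, read on both strands: the GC box (GGGCGG), the NFY box (CCAAT), the cyclic AMP response element CRE (TGACGTCA), the E-box (CACGTG) and the WT1/EGR1 motif (GCGGGGGCG). Coordinates are in GRCh38.
SCN9A (chr2:166376002-166376107, minus strand): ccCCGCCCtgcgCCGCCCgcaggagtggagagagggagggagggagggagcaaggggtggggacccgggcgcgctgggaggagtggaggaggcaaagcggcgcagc
P2RY1 (chr3:152834827-152834946, plus strand): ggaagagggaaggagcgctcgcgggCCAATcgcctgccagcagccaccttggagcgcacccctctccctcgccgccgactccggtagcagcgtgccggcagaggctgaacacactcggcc
LINC00839 (chr10:42475371-42475479, plus strand): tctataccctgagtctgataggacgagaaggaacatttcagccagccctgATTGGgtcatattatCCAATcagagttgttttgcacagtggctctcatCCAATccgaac
DAB2 (chr5:39425234-39425353, minus strand): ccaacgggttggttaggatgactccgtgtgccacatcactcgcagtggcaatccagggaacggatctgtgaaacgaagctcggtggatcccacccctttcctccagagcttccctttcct
GPR132 (chr14:105065551-105065670, minus strand): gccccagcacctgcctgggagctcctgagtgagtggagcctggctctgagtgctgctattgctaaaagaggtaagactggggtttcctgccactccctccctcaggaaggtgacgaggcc
PPP4R4 (chr14:94174192-94174311, plus strand): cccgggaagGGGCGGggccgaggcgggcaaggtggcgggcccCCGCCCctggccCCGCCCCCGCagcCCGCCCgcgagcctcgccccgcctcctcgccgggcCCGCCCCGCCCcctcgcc
AREG (chr4:74444978-74445097, plus strand): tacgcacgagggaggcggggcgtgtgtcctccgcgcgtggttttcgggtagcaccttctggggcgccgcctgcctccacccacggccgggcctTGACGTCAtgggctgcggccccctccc
ERP29 (chr12:112013228-112013347, plus strand): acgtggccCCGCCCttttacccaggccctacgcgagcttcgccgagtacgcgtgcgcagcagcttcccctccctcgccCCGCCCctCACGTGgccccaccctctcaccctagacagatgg
CCDC138 (chr2:108786630-108786749, plus strand): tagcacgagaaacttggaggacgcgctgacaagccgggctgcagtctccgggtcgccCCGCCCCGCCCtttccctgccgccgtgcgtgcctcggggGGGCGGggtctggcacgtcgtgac
The windows of SCN9A and P2RY1 precede starts whose peaks nearly vanished in B-K562. The peak of LINC00839 was taller there than in V-K562, and its window held 3 NFY boxes and no GC box. GPR132 and PPP4R4 had taller peaks in G-K562, and had 55.7% and 76.1% GC around the summit. The window of PPP4R4 showed 6 GC boxes and a WT1/EGR1 match, while that of GPR132, like that of DAB2, matched none of the 13 motifs. AREG carried a complete CRE. ERP29 and CCDC138, whose height hardly varied, held 2 and 3 GC boxes.

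The members clustered tightly around the annotated start. The median summit lay 11 bp upstream of it, 5508 members (55.7%) had their summit within 100 bp, and 5304 (53.6%) had it upstream. A region held more than 1 gene start in 2058 cases (20.8%), and in 1867 of these the starts lay on opposite strands, the arrangement of bidirectional promoters. By the type of the nearest gene, 8557 members were at protein-coding genes, 706 at long noncoding RNAs, 203 at transcribed pseudogenes, 195 at tRNA genes and 109 at miRNAs. Line by line, the median summit lay at -14 bp in V-K562, at -10 bp in B-K562 and at -14.7 bp in G-K562.

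**Figure D1:**
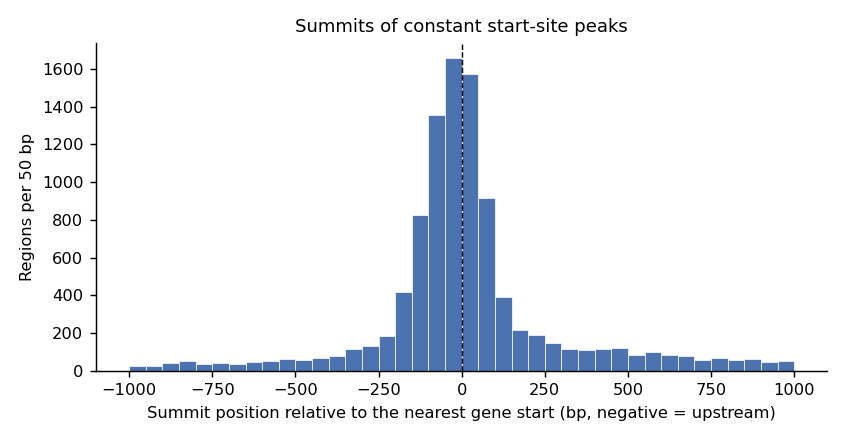
Histogram of the position of the highest summit of each of the 9889 members relative to the nearest gene start, in bins of 50 bp, with negative values upstream. The median was -11 bp and 55.7% of summits lay within 100 bp of the start.

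The thresholds fell within a continuum. Just inside the 1 kb border was a member at RAC3, at 1000 bp, with 88, 81 and 78 tags in V-K562. The first constant regions outside, just past 1 kb from RAB1B and TDP1, had 94, 114 and 88 tags and 67, 93 and 68 tags in the same libraries. Another 4322 regions near starts lacked a peak in at least 1 library. Of the 553 that lacked it in exactly 1, V-K562 was the line without it in 333 cases, 199 of them in replicate 1 alone, against 122 for B-K562 and 98 for G-K562, and such regions had a median height of 36.8 to 43.5 tags in the other libraries. A peak under the peak caller's limit in any library thus removed a start from the set, and counts of lowered and of raised members do not include such starts.

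Several genes that stand for these cells had no member at their start. GATA1, the master regulator of the erythroid lineage, had a peak within 1 kb of its start in 3 libraries, KLF1 in 1, and EREG, a growth factor gene, in 7. No region of any library had its summit within 1 kb of the start of HBG1, HBG2 or BASP1. The authors kept only reads that mapped uniquely, so a start in repeated sequence can lack a peak. Whether this applied to any of these starts was not tested. The RNA tables show the identity of the lines nonetheless. BASP1 RNA stood at 7, 5 and 7 normalized units in V-K562, at 6849, 6618 and 6189 in B-K562, and at 9323, 12538 and 8124 in G-K562. RNA of the gamma-globin gene HBG2 was 34612 to 41363 units in the control line, 58217 to 62047 with wtBASP1 and 5347 to 5597 with BASP1-G2A, and GATA1 ran from 5347 to 9548 over all libraries. The T cell marker CD3E reached at most 29. G-K562 values come from a table normalized separately from that of B-K562.

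Chromatin at start sites differed in sequence from constant chromatin elsewhere. Within 100 bases on either side of the summit, members had a median GC content of 67.2% and a CpG observed over expected ratio of 0.866, against 54.7% and 0.308 in the constant regions farther from starts and 52.2% and 0.284 in all merged regions. A GC box was present in 65.2% of members, 22.0% of the other constant regions and 20.3% of all regions. The ETS motif (CCGGAAG) was found in 16.4%, 3.38% and 3.89%, the NRF1 motif (GCGCATGC) in 4.61%, 0.772% and 1.03%, and the WT1/EGR1 motif in 5.69%, 1.16% and 1.44%. Motifs of enhancer-binding factors showed the opposite order, with AP-1 (TGACTCA, with any base allowed at its centre) in 3.78% of members against 21.0% of the other constant regions, and the GATA motif, searched as AGATAAG, in 1.13% against 9.85%. The TATA motif (TATAAA) was present in 2.35% of members. These shares describe letters in a window, and a match is not a bound site.

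Start-site peaks stood higher above the rest of constant chromatin in both BASP1 lines than in V-K562. As deposited, the median member height was 88, 94 and 93 tags in the V-K562 libraries, 119, 120 and 118 in B-K562, and 138, 142 and 149 in G-K562. The 3 lines did not overlap, and G-K562 was highest. Constant regions elsewhere showed no such order, with medians of 59 to 60 tags in V-K562, 56 to 60 with wtBASP1 and 60 to 66 with BASP1-G2A. Within a library, the member median was 1.49 to 1.57 times that of the other constant regions in V-K562, 1.98 to 2.14 times in B-K562 and 2.09 to 2.37 times in G-K562. The peaks were also wider, with a median of 556 bp ± 7.37 (SD, n = 3) in V-K562, 604 bp ± 8.02 in B-K562 and 607 bp ± 12.5 in G-K562, while widths elsewhere stayed between 386 and 395 bp in all libraries.

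Trimmed-mean scaling reduced these differences and kept the order of V-K562 below the other lines. Scaled member medians were 102 to 106 in V-K562, 118 to 122 with wtBASP1 and 120 to 126 with BASP1-G2A, so that the BASP1 lines overlapped each other and neither overlapped V-K562. The constant regions elsewhere then ran the other way, at 67.3 to 68.7, 57.1 to 59.5 and 53.0 to 57.3. The scaling factors were taken over all constant regions, members included, so a rise at members lowers the scaled values elsewhere by construction. As deposited, the regions elsewhere showed no such order.

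**Figure D2:**
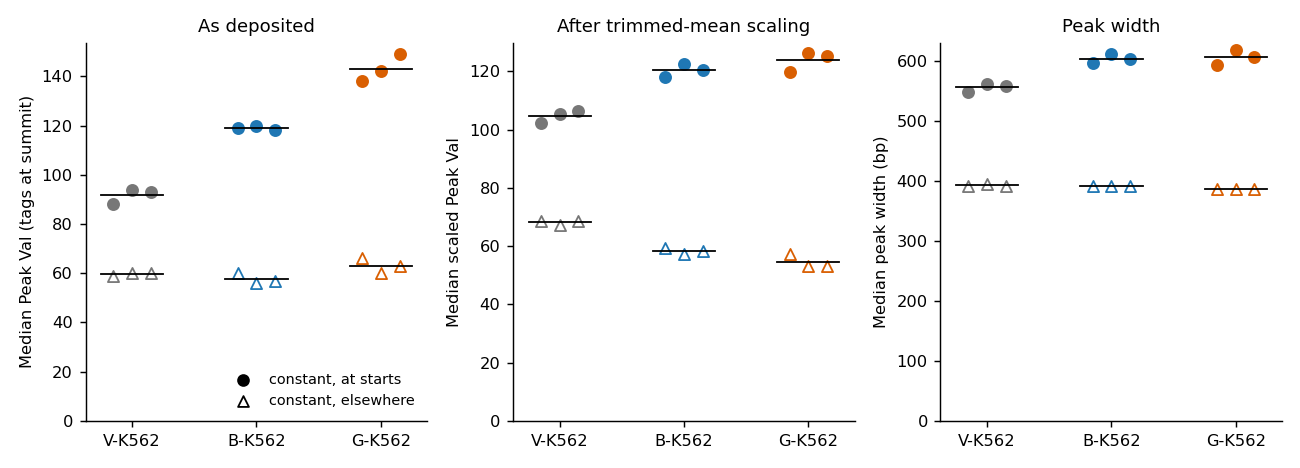
Median Peak Val as deposited, median Peak Val after scaling, and median peak width per library for the 9889 members (filled circles) and the 17095 constant regions elsewhere (open triangles); lines mark the mean of 3 libraries, and every axis starts at 0. Member medians of V-K562 lay below those of B-K562 and G-K562 in all 3 panels, and widths elsewhere were level.

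The members kept their rank order and varied less than the constant regions elsewhere, which were lower in height. The median SD of the log2 scaled height over the 9 libraries was 0.246 for members and 0.345 for constant regions elsewhere. Between replicates of a line the median SD was lower at members too, at 0.168 against 0.222. Spearman's rho between libraries, over members, was 0.940 to 0.972 within a line and 0.871 to 0.931 between lines, against 0.899 to 0.932 and 0.640 to 0.809 elsewhere. In 6184 members (62.5%) the log2 difference stayed under 0.5 in size in all 3 comparisons, compared with 43.2% of the constant regions elsewhere. Over their 9 libraries, members had a median 1.67-fold range from lowest to highest scaled value. Members and constant regions elsewhere were not matched for height. The part of height in these differences in spread and rank order was not tested.

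The least variable start belonged to ERP29, which encodes a chaperone of the endoplasmic reticulum and shares its promoter with TMEM116. It had 154, 149 and 148 tags in V-K562, 168, 168 and 175 in B-K562 and 195, 202 and 210 in G-K562, and an SD of 0.045 on the log2 scale after scaling. The deposited values climbed from line to line much as the member medians did. ERP29 RNA was nevertheless lower in B-K562, by 0.80 ± 0.05 on the log2 scale (limma adjusted p = 3.8e-09). CCDC138 and MIB2, a ubiquitin ligase gene of the Notch pathway, followed with SDs of 0.056 and 0.057. MIB2 stood at 180 to 188 tags in V-K562, at 216 to 219 with wtBASP1 and at 242 to 261 with BASP1-G2A, while its RNA fell in B-K562 by 1.69 ± 0.09 (limma adjusted p = 1.4e-09).

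The tallest start-site peaks were those of CCDC116, SDF2L1, NUP214, ZNF595 and a region at PRAME. The regions at CCDC116, SDF2L1 and PRAME all lie on chromosome 22. Tags were not corrected for DNA copy number, and its part in these heights was not tested. At SDF2L1, a gene of an endoplasmic reticulum chaperone complex, the libraries gave 927, 908 and 948 tags in V-K562, 1185, 1183 and 1180 in B-K562 and 1243, 1357 and 1363 in G-K562. None of these 5 regions was called in any comparison. The region nearest to CCDC116, 525 bp inside the gene, reached 1423 tags in B-K562 replicate 1, and that of NUP214, a nuclear pore gene, 1429 tags in G-K562 replicate 3.

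Single start sites seldom passed the call. Compared with V-K562, 27 members were higher (0.273%) and 42 lower (0.425%) in B-K562. Of the 52204 regions tested, 1.51% were higher and 6.23% lower. All regions tested include ones without a peak in some libraries, which the rule bars from membership, so their shares are not like for like. Of the constant regions elsewhere, which also held a peak in all 9 libraries, 0.503% were higher and 4.74% lower. Without V-K562 replicate 2, 42 members were higher. The counts were 6 higher and 20 lower with the mean pileup over the interval in place of the summit, and 6 and 18 with a pseudocount of 10. The median member changed by 0.22, the median of all regions tested by -0.07 and that of constant regions elsewhere by -0.13. By the adjusted p alone, 1830 members were higher and 190 lower, when 8.41% of all regions were higher and 16.7% lower. Among called members 39.1% were higher, and this split moved to 81.2% without scaling (95 higher, 22 lower) and to 23.0% with scaling in bins of GC content (14 higher, 47 lower).

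In G-K562, 152 members were higher than in V-K562 (1.54%) and 79 lower (0.799%), against 2.81% and 13.3% of the 54213 regions tested. The shares of constant regions elsewhere were 1.23% higher and 12.4% lower. Mean pileup gave 72 higher and 48 lower, and a pseudocount of 10 gave 81 and 49. The median member changed by 0.30, compared with -0.10 for all regions tested and -0.17 for constant regions elsewhere. By the adjusted p alone, 3845 members were higher and 407 lower, with 15.6% of all regions higher and 26.3% lower. The share of higher ones among called members was 65.8%, and it became 97.6% without scaling (1275 higher, 32 lower) and 40.0% with scaling in GC bins (58 higher, 87 lower). Without scaling the median of all regions moved from -0.10 to 0.19, and for B-K562 from -0.07 to 0.06.

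Between the BASP1 lines, 89 members were higher with BASP1-G2A than with wtBASP1 (0.900%) and 103 lower (1.04%), against 4.22% and 8.63% of the 60181 regions tested. For constant regions elsewhere the shares were 3.75% higher and 9.43% lower. With mean pileup these counts were 42 and 61, and with a pseudocount of 10 they were 52 and 65. By the adjusted p alone, 1203 were higher and 754 lower, and the corresponding shares of all regions were 12.0% and 15.7%. The median member changed by 0.06. Of the called members 46.4% were higher, and 76.0% without scaling (196 higher, 62 lower). In all, 385 members (3.89%) were called in at least 1 of the 3 comparisons, 2 of which share the V-K562 libraries.

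The differences between lines moved with base composition. Members with under 50% GC around the summit had median log2 changes of 0.04 in B-K562 and -0.10 in G-K562 against V-K562, while those over 80% GC had 0.33 and 0.43. Constant regions elsewhere ran from -0.29 to 0.32 and from -0.49 to 0.42 over the same classes, so that the most GC-rich regions had nearly the same medians at starts and elsewhere. Over members, Spearman's rho between GC content and the change was 0.238 for B-K562 and 0.292 for G-K562, a description over 9889 regions that share the same 6 libraries. With scaling inside GC bins the member medians dropped to 0.07 and 0.09. The part of library composition in the general rise was not tested beyond this scaling.

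**Figure D3:**
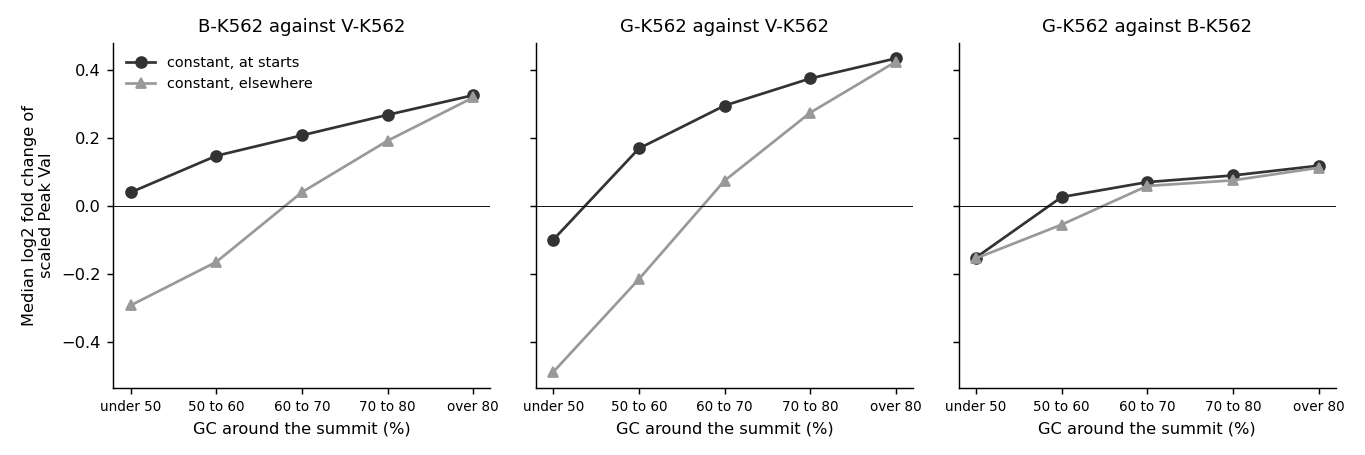
Median log2 fold change of scaled Peak Val by GC content around the summit, for members (dark circles) and constant regions elsewhere (grey triangles) in the 3 comparisons. Against V-K562 the medians rose with GC content in both classes and met above 80% GC.

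The strongest fall in B-K562 was at SCN9A, the gene of the voltage-gated sodium channel Nav1.7. Its peak at chr2:166375728-166376595, with the summit 205 bp upstream of the start, had 122, 151 and 145 tags in V-K562, 21, 24 and 30 in B-K562 and 387, 392 and 396 in G-K562. The 3 lines were far apart, with B-K562 lowest and G-K562 highest. The log2 change was -2.59 ± 0.18 in B-K562 (limma adjusted p = 0.00084) and 1.13 ± 0.09 in G-K562 (limma adjusted p = 0.00022), the latter 0.89 with scaling in GC bins and then under the fold required. G-K562 exceeded B-K562 by 3.71 ± 0.14 (limma adjusted p = 6.1e-07), the largest difference of any member. In bulk libraries a lower peak in every cell and a lost peak in some cells cannot be told apart. SCN9A RNA followed, with 444, 386 and 426 units in V-K562, 30, 37 and 39 in B-K562 and 1296, 1133 and 1582 in G-K562.

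P2RY1, the gene of a receptor for ADP, also fell in B-K562. Its region at chr3:152834591-152835705 had 85, 79 and 78 tags in V-K562, 22, 22 and 17 in B-K562 and 125, 130 and 116 in G-K562. The change in B-K562 was -2.08 ± 0.19 (limma adjusted p = 0.0012), and that in G-K562, 0.25 ± 0.11, did not pass the test, with a difference between the BASP1 lines of 2.33 ± 0.14 (limma adjusted p = 4.9e-06). P2RY1 RNA fell by 2.71 ± 0.08 on the log2 scale in B-K562, and in G-K562 its log2 change of -0.92 ± 0.07 had the sign opposite to the tags. Another of the largest falls was next to IGLV1-62, an immunoglobulin lambda segment whose RNA was listed at 0 in every library. Its log2 change was -1.77 ± 0.16 (limma adjusted p = 0.0013) at a summit 796 bp from the start.

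Among the rises in B-K562, LINC00839, a long noncoding RNA gene, was the largest. It had 23, 16 and 24 tags in V-K562, 106, 89 and 71 in B-K562 and 21, 27 and 30 in G-K562, with V-K562 and G-K562 overlapping. The log2 change was 1.86 ± 0.24 (limma adjusted p = 0.0024), with values under 17 set to 17. Its RNA rose from 150, 150 and 154 units to 1046, 1129 and 1043, and stood at 114, 132 and 105 in G-K562. POU3F1, a POU domain transcription factor gene, rose from 29, 42 and 28 tags to 110, 106 and 109 (1.55 ± 0.18, limma adjusted p = 0.0021), although its RNA was at most 6 units in any library. SPEF2, a gene of the sperm flagellum, rose by 1.48 ± 0.18 (limma adjusted p = 0.0022).

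The named starts that lost most in G-K562 were higher in B-K562 than in V-K562 by the adjusted p alone. DAB2, whose product is an adaptor for clathrin-mediated uptake, had 147, 123 and 148 tags in V-K562, 318, 287 and 272 in B-K562 and 43, 43 and 41 in G-K562. The changes were 0.91 ± 0.11 in B-K562 (limma adjusted p = 0.0021) and -2.05 ± 0.13 in G-K562 (limma adjusted p = 0.00017), and DAB2 RNA went the same way, with log2 changes of 0.69 ± 0.05 and -2.83 ± 0.08. At MIR4441 the tags were 115, 108 and 108 in V-K562, 204, 196 and 198 in B-K562 and 32, 36 and 19 in G-K562, and the change in G-K562 was -2.28 ± 0.24. LINC01146 had 94, 107 and 92 tags, then 139, 168 and 133, then 35, 34 and 20, a change of -2.08 ± 0.24 in G-K562 (limma adjusted p = 0.00065). The tables list these last 2 genes at 0 or 1 unit of RNA in every library, and libraries made from mRNA do not measure a miRNA such as MIR4441.

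The largest rises in G-K562 were at GPR132, RAB3C and PPP4R4. GPR132 encodes a G protein-coupled receptor, and its start had 43, 36 and 33 tags in V-K562, 26, 30 and 38 in B-K562 and 243, 167 and 228 in G-K562, a log2 change of 2.11 ± 0.17 (limma adjusted p = 0.00024). Its RNA rose by 2.60 ± 0.16 in G-K562 and fell by 1.90 ± 0.25 in B-K562. RAB3C, a gene of vesicle release, rose from 20, 30 and 18 tags to 131, 111 and 125 at a summit 881 bp inside the gene, with at most 3 units of RNA in any library. PPP4R4, a subunit gene of protein phosphatase 4, rose by 1.94 ± 0.20 (limma adjusted p = 0.00043), from 20, 16 and 18 tags to 99, 74 and 106.

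**Figure D4:**
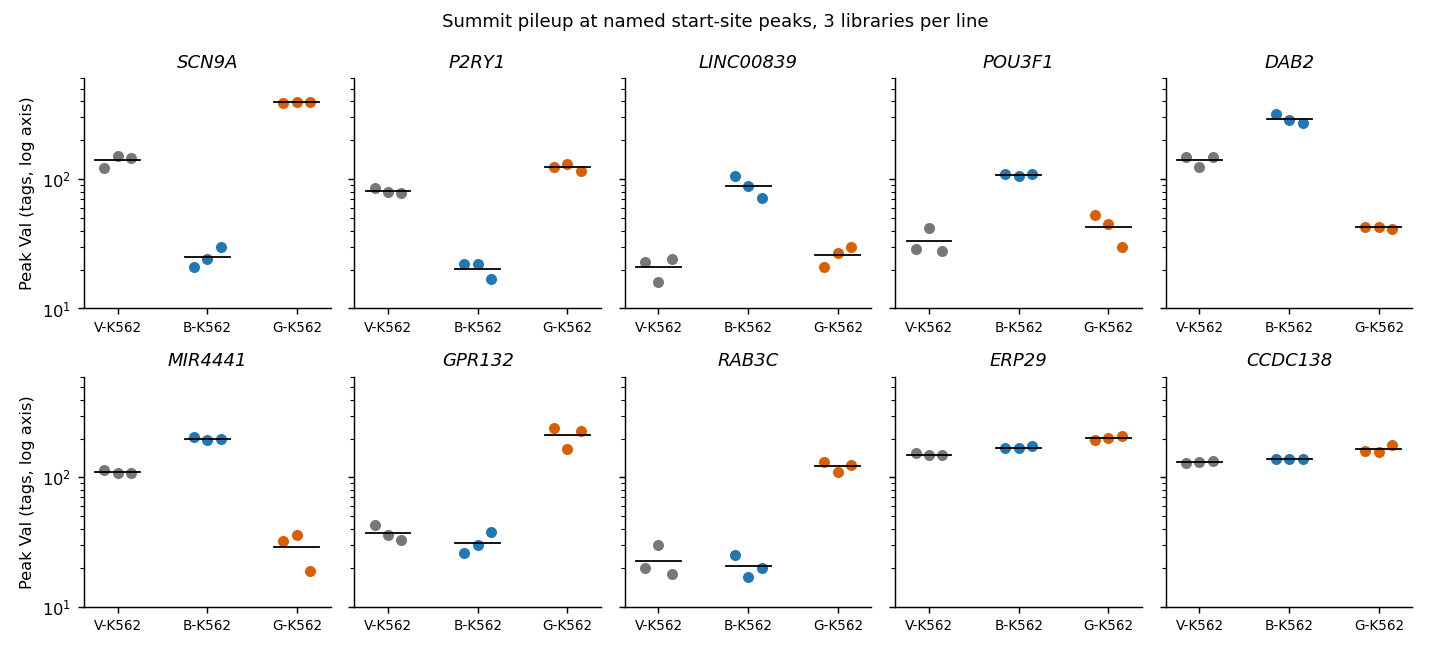
Deposited Peak Val on a log axis at 10 named start-site peaks, 3 libraries per line, with lines at the mean. SCN9A and P2RY1 were lowest in B-K562, DAB2 and MIR4441 lowest in G-K562, LINC00839 and POU3F1 highest in B-K562, GPR132 and RAB3C highest in G-K562, and ERP29 and CCDC138 rose slightly from line to line.

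GPR132 and PPP4R4 lie on chromosome 14 beyond 70 Mb, where open chromatin stood higher as a block in G-K562, at starts and elsewhere. The 129 members there had scaled medians of 73.3 to 77.7 in V-K562, 85.2 to 88.9 with wtBASP1 and 132 to 146 with BASP1-G2A. In G-K562, 125 of the 129 were above V-K562, though the median of all members was above it too, by 0.30. Of the 152 members called higher in G-K562, 39 came from this stretch. They were 30.2% of its members, beside 1.54% of all members. The median log2 change of their RNA was 0.58 in G-K562, and the 187 members of the rest of chromosome 14 had a median change in height of 0.30, the same as all members. Constant regions away from starts had a median log2 change of 0.44 beyond 70 Mb and of -0.14 before it. LINC01146, in the same stretch, was among the largest falls. YY1, a zinc finger transcription factor gene in this stretch, had 159, 165 and 173 tags in V-K562, 217, 194 and 203 in B-K562 and 342, 390 and 417 in G-K562 (0.84 ± 0.09 in G-K562, limma adjusted p = 0.00051).

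Members at tRNA genes were as a class nearly level, with median log2 changes of 0.05 in B-K562 and -0.10 in G-K562. An exception, chosen after its values were seen, was a group of cysteine tRNA genes on chromosome 7 within 1 Mb of TRC-GCA13-1. All 4 tRNA members in that stretch were lower in B-K562 than in V-K562 by the adjusted p, and 3 of them were higher in G-K562, where TRC-GCA17-1 changed by 0.31 and did not pass the test. TRC-GCA13-1 had 51, 48 and 56 tags in V-K562, 29, 28 and 26 in B-K562 and 169, 150 and 182 in G-K562, a difference between the BASP1 lines of 2.33 ± 0.12 (limma adjusted p = 2.5e-06). TRC-GCA9-2, TRC-GCA1-1 and TRC-GCA17-1 differed in the same direction by 1.97, 1.76 and 1.14, all called. Of the other 191 tRNA members, 5 were called in any comparison.

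At AREG, VDR and VEGFA, changes in start-site height in B-K562 were small beside those in RNA. AREG, which encodes the growth factor amphiregulin, had 53, 67 and 69 tags in V-K562, 54, 38 and 38 in B-K562 and 88, 68 and 104 in G-K562. Both ranges overlapped that of V-K562, and the log2 change of -0.69 ± 0.20 in B-K562 (limma adjusted p = 0.035) stayed under the fold required, whereas AREG RNA fell by 2.56 ± 0.11. At VDR, the vitamin D receptor gene, the tags were 54, 43 and 43, then 60, 62 and 51, then 83, 55 and 70, with a log2 change of 0.15 ± 0.18 in B-K562 (limma adjusted p = 0.57), and VDR RNA fell by 1.06 ± 0.10. At VEGFA, the gene of an angiogenic factor, the tags overlapped between V-K562 and B-K562, at 93 to 122 and 104 to 125, and the RNA fell by 2.27 ± 0.05. In G-K562 the log2 changes in RNA were 0.51, -0.55 and -0.52 at AREG, VDR and VEGFA. Those in height were 0.09, 0.19 and 0.03.

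WT1 had a pair of members at its start, which it shares with the antisense gene WT1-AS. The one 911 bp inside the gene held 51, 77 and 73 tags in V-K562, 60, 74 and 86 in B-K562 and 153, 158 and 159 in G-K562, a change of 0.88 ± 0.16 in G-K562 (limma adjusted p = 0.0037) with no overlap. The one 145 bp upstream changed by 0.59 ± 0.18 and 0.57 ± 0.19 in the 2 lines. WT1 RNA rose by 1.38 ± 0.07 in G-K562 (limma adjusted p = 1.8e-08), and since the sources used here do not state whether reads were counted by strand, reads of WT1-AS may be part of it where the genes overlap. POU3F2, a POU domain factor gene, had 59, 78 and 91 tags, then 168, 176 and 162, then 153, 187 and 170, and was called higher in B-K562 at 1.01 ± 0.15 (limma adjusted p = 0.0038), a call that several alternatives removed. Its RNA rose from 14, 8 and 13 units to 122, 140 and 137.

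GAPDH, a glycolytic enzyme often used as a reference, had 77, 86 and 82 tags in V-K562, 128, 121 and 142 in B-K562 and at least 138 in every G-K562 library, and its RNA fell by 1.09 ± 0.06 in G-K562 (limma adjusted p = 6.5e-08). CTCF, the architectural factor, had log2 changes in peak height of 0.32 ± 0.07 in B-K562 and 0.60 ± 0.07 in G-K562. Its RNA rose by 0.997 ± 0.046 in B-K562, where the peak rose less, and by 0.57 ± 0.06 in G-K562. RELA, TFCP2 and HDAC1 had log2 changes in height of 0.10 to 0.35 in both lines. TAL1, an erythroid transcription factor gene, was the only one of these whose peak in G-K562 was below the control line, with a log2 change of -0.37 ± 0.13 (limma adjusted p = 0.048), and its RNA changed by -0.79 ± 0.07. None of these log2 changes in height reached 1.

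The gene lists were chosen with earlier results of these data known, and their counts are given beside those over all members. By limma's adjusted p alone, 18.5% of all members were higher and 1.92% lower in B-K562, and 38.9% and 4.12% in G-K562, and by the 2-fold call few of the constitutive genes passed. Of the 81 start regions of cytosolic ribosomal protein genes, 18 were higher and 0 lower in B-K562 by limma's adjusted p alone, and 34 and 0 in G-K562, with medians of 0.19 and 0.31 beside 0.22 and 0.30 over all members. RPL37 moved most in B-K562, from 214, 250 and 237 tags to 473, 498 and 490 (0.90 ± 0.08). The RNA of these genes had medians of -0.29 in B-K562 and 0.05 in G-K562. Mitochondrial ribosomal protein genes had 20 of 75 regions higher in B-K562, and 38 higher and 1 lower in G-K562, where MRPS2 and MRPL3 passed both criteria at 1.31 ± 0.23 and 1.03 ± 0.19 (0.91 and 0.96 with scaling in GC bins, under the fold required) while their RNA changed by 0.08 and -0.29. The proteasome had 6 and 23 of 40 regions higher, the respiratory chain 14 and 35 of 83, and 1 region of the latter was lower in each line. In B-K562 the shares of the proteasome and the respiratory chain lay below the 18.5% of all members.

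In several groups the changes in RNA and in height differed in size or sign. Pre-ribosome factors, which process ribosomal RNA, had RNA at least 2-fold higher and called in 18 of 29 genes in B-K562 and in 0 of 29 in G-K562, beside 5.52% and 4.95% of all genes tested at members, while their 30 start regions had median changes in height of 0.29 and 0.33. UTP20 RNA rose by 2.13 ± 0.06 in B-K562, and its peak went from 40, 62 and 51 tags to 92, 82 and 88 (0.63 ± 0.17, limma adjusted p = 0.029). The 23 regions of cholesterol genes had the largest medians of the lists in G-K562, 0.43, and 14 of them were higher by adjusted p alone, beside 38.9% of all members, while their RNA was called lower in 9 of 22 genes and higher in 0, beside 5.47% and 4.95% of the genes at members. At LSS, the gene of lanosterol synthase, tags went from 76, 124 and 96 to 193, 249 and 241 in G-K562, and the RNA changed by -0.56 ± 0.06. Aminoacyl-tRNA synthetases, RNA polymerase II with its general factors, and chromatin enzymes had medians between 0.20 and 0.36 in both lines. Their counts of higher regions by adjusted p alone were 9 and 17 of 34, 4 and 13 of 42, and 4 and 9 of 22, beside the 18.5% and 38.9% of all members.

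Zinc finger genes, many of which encode repressors of transposable elements, held every member of the 15 lists that was called lower in G-K562 against V-K562. As the largest list they supplied 340 members, of which 12 were called lower and 3 higher in G-K562 against V-K562, and 16 lower and 2 higher against B-K562, while B-K562 itself had 2 lower and 1 higher than V-K562. ZNF571 had 108, 111 and 117 tags in V-K562, 123, 99 and 116 in B-K562 and 27, 48 and 51 in G-K562, a change of -1.80 ± 0.24 in G-K562 (limma adjusted p = 0.0011), and its RNA went from 100, 104 and 106 units to 17, 14 and 18. ZNF229 had 57, 67 and 63 tags, then 84, 96 and 116, then 42, 25 and 25, a log2 change of -1.90 from B-K562 to G-K562. ZNF736 had 111, 80 and 86 tags in V-K562, 78, 48 and 43 in B-K562 and 36, 31 and 28 in G-K562, called lower in G-K562, and its RNA fell in both lines. Over all members 0.799% were called lower in G-K562 against V-K562. The median over the 340 members was 0.19 in G-K562, beside 0.30 over all members. RNA of the group was called lower in 25 of 335 genes tested in G-K562 and higher in 9, beside 5.47% lower and 4.95% higher of the genes at members and 10.3% lower of all genes.

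Replication-dependent histone genes had medians of 0.11 in B-K562 and -0.18 in G-K562, the only list with a negative median against V-K562, and 7 of 35 regions were lower and 0 higher in G-K562 by limma's adjusted p alone, beside 4.12% and 38.9% of all members. HIST1H4I went from 93, 80 and 97 tags to 60, 63 and 61 in G-K562 (-0.90 ± 0.13, limma adjusted p = 0.0017). Histone genes are near-identical copies that share reads, so single members are uncertain. Interferon response genes had 13 members. By limma's adjusted p alone, 0 were higher and 0 lower in B-K562, beside 18.5% and 1.92% of all members. In G-K562, 4 were higher and 0 lower, beside 38.9% and 4.12%. OAS3, an enzyme of viral RNA sensing, was lower in B-K562 than in G-K562, with 50, 35 and 34 against 106, 111 and 99 tags (1.19 ± 0.16, limma adjusted p = 0.00047). IRF7, a transcription factor gene of the same response, had 95, 122 and 103 tags in V-K562 and 235, 226 and 257 in G-K562, and its RNA stood at 337, 356 and 451 units in V-K562, at 184, 199 and 183 in B-K562 and at 694, 644 and 702 in G-K562.

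Early response and feedback genes of the MAPK pathway had 11 of 19 regions higher in G-K562 by adjusted p alone and 6 of 19 RNAs called higher, beside 38.9% of all members and 4.95% of the genes at members. SPRY4, a feedback inhibitor, had 79, 78 and 66 tags in V-K562, 113, 130 and 102 in B-K562 and 168, 126 and 179 in G-K562, while its RNA changed by -1.12 ± 0.07 in B-K562 and 1.01 ± 0.07 in G-K562. The 9 regions of erythroid and haematopoietic factors and the 8 of tumour suppressors and cell cycle genes had medians of 0.10 to 0.30 against V-K562, and 1 region of these, at TAL1, was lower in G-K562 by adjusted p alone.

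RNA calls at called start sites were mostly in the direction of the peak. Of the 26 genes tested for RNA at members lower in B-K562, 17 had RNA called lower and 1 higher, and of the 21 at members higher, 10 had RNA called higher and 0 lower. In G-K562 the counts were 38 lower and 4 higher of 55 at lowered members, and 26 higher and 1 lower of 134 at raised ones. Between the BASP1 lines, 48 of 69 were higher at raised members and 47 of 81 lower at lowered ones. Over all genes tested, RNA was called higher in 6.46% and lower in 14.1% for B-K562, in 8.81% and 10.3% for G-K562, and in 17.4% and 12.5% between them. At members that were not called, RNA was higher in 5.02% and lower in 8.07% in B-K562.

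Most RNA differences occurred at starts that did not pass the call, which follows from the numbers. Of the 9889 members, 9820 were uncalled in B-K562 and 9658 in G-K562. The 8844 genes with RNA tested at uncalled members of the B-K562 comparison included 444 called higher and 714 called lower in RNA. These were 5.02% and 8.07%, beside 5.52% and 8.01% of all genes tested at members. In the G-K562 comparison they were 416 and 448 of 8744, or 4.76% and 5.12%, beside 4.95% and 5.47%. Spearman's rho between the change in height and in RNA over members was 0.216, 0.224 and 0.239 in the 3 comparisons, over 8891 to 8974 regions that share their libraries. VEGFA and MIB2 are examples of large RNA differences above an open, nearly level start.

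**Figure D5:**
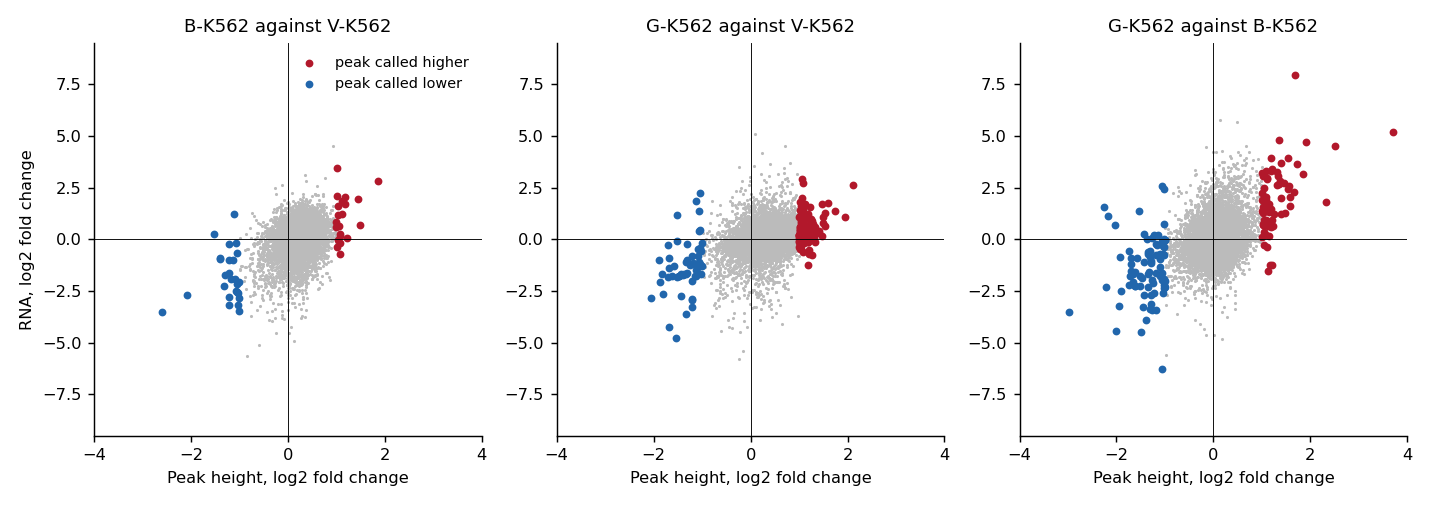
Log2 fold change in RNA of the nearest gene against log2 fold change in peak height for members with RNA tested, in the 3 comparisons; grey points were not called in height, red were called higher and blue lower. Of the RNAs at blue points, 24 of 26 in B-K562 and 49 of 55 in G-K562 lay below 0.

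Taller start-site peaks went with more RNA within V-K562. In the lowest quartile of height, from 17.3 to 59.3 tags as the mean of 3 libraries, 83.7% of nearest genes reached 10 units of RNA and the median was 116 units per kb of exon, and in the highest, from 140.7 tags, 93.4% did and the median was 412 units per kb. Of genes with no member at their start, 28.1% reached 10 units.

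Members called lower differed from all members in sequence as well. Members lower in B-K562 had a median GC content of 55.2% and a CpG ratio of 0.355, and those lower in G-K562 53.7% and 0.394, values close to the constant regions elsewhere. Members higher had 68.7% and 72.1% GC, beside 67.2% of all members. The change in height itself moved with GC content, as described above. An AP-1 motif was present in 28.6% of the members lower in B-K562 and 19.0% of those lower in G-K562, beside 3.78% of all members, and a GC box in 21.4% and 21.5% beside 65.2%. A GATA motif was found in 16.5% of the members lower in G-K562 beside 1.13%. The WT1/EGR1 motif was found in 14.8% of the 27 members higher in B-K562 and 0% of the 42 lower, beside 5.69%. These are small groups picked by their height, the shares carry no test, and P2RY1, at 74.6% GC, was among those lower in B-K562.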

How the data were processed

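Accessibility was measured by ATAC-seq and RNA by RNA-seq in the V-K562, B-K562 and also G-K562 lines, with 3 libraries per line and assay, grouped by the submitters' labels. For ATAC-seq, the authors mapped reads to GRCh38, removed duplicates, drew an equal number of tags from every library, and found peaks in each with MACS2. The deposited values are signal, the tag pileup at the summit of a peak (Peak Val) and its mean over the interval, on an equal tag number, so the deposited signal does not show depth. For RNA-seq, the authors counted reads on RefSeq genes with Subread, and the deposited values used here are a score, whole numbers that result from dividing counts by DESeq2 size factors, with a table for each BASP1 line. Columns of the authors' fold changes and p-values were not used, and tests for raw counts did not apply to the rounded scores.

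Intervals were merged where they overlapped. A region's value was its highest Peak Val in a library, scaled by a trimmed mean (30% of log ratios and 5% of means trimmed). After scaling, 17 (the 5th percentile) replaced lower or missing values. Before scaling, 62 members had a value under 17. Scaling also brought some values near 17 under it, as at P2RY1 in B-K562 and MIR4441 in G-K562. Testing was limited to regions that had a peak in 3 or more libraries of a comparison, and used limma 3.58.1 (R 4.3.3), trend option, on log2(value + 1), with Benjamini-Hochberg adjustment. RNA values were tested likewise where at least 10 in 3 libraries, and for the comparison with G-K562 the B-K562 table was brought to the scale of the other by a factor of 1.02, the mean ratio of the V-K562 columns of both tables. Gene starts came from the RNA table (28395 genes), and 8947 members (90.5%) also lay within 1 kb of a GENCODE v44 protein-coding start. Scripts were tested on simulated data. Python 3.11.15, pandas 2.3.3, numpy 2.4.6, scipy 1.17.1 and pysam were used for the other steps.

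Members and gene lists were chosen with earlier results of these data known. Named regions were the 3 largest rises and falls among called members of each comparison, the 5 tallest, the 3 least and 3 most variable, starts of genes central to the study, up to 4 members of each list by size of change, and the 2 regions nearest to the 1 kb border on each side. From this set some are described, and some genes and regions, those on chromosome 8 among them, are not reported here. The p-values measure the spread between libraries of 1 pool per line. Alternatives covered the start annotation, distance, scaling, value, filter, pseudocount, call rule, left-out libraries and a replicate block.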

Additional observations from a re-analysis of the deposited data

Results flagged for a closer look

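At 9 starts, among the regions of the naming rule and the 4 tRNA members near TRC-GCA13-1, the effect against V-K562 differed between the BASP1 lines, with adjusted p-values of at most 0.05 and opposite signs in the 2 lines and a called difference between them by limma. The effect in G-K562 minus that in B-K562, on the log2 scale, was 3.71 at SCN9A, -2.98 at MIR4441, -2.51 at LINC01146, -2.98 at DAB2, -1.90 at ZNF229 and -1.72 at ZNF416. It was 1.76 at TRC-GCA1-1, 1.97 at TRC-GCA9-2 and 2.33 at TRC-GCA13-1. These starts were picked from the largest changes, and the 2 effects share the V-K562 libraries. Groups of 3 libraries are too small for a test of single outlying libraries, so none was made.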

How the results depend on the processing

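Without scaling, members higher and lower numbered 95 and 22 in B-K562 against V-K562, 1275 and 32 in G-K562 against V-K562, and 196 and 62 between the BASP1 lines, with medians of 0.37, 0.66 and 0.29. Scaling in GC bins gave 14 higher in B-K562 and 58 in G-K562, with medians of 0.0666, 0.0890 and 0.0162. By the adjusted p alone the counts were 1830 and 190, 3845 and 407, and 1203 and 754, and for RNA 4495 and 3422, 3438 and 3387, and 3598 and 4637. Mean pileup over the interval gave 6 and 20, 72 and 48, and 42 and 61, and a pseudocount of 10 gave 6 and 18, 81 and 49, and 52 and 65. With no filter on low values the RNA medians were 0.0387 in B-K562 and -0.0471 between the BASP1 lines. The cause of these shifts was not tested, apart from the lower fold changes that a larger pseudocount makes by construction and the fold criterion that the adjusted p alone drops.

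The number of members was 8790 with 500 bp in place of 1 kb, 9891 with the median summit and 10817 with GENCODE protein-coding starts, each within 1.5 times of 9889. Leaving out 1 library gave 22 to 42 higher and 29 to 38 lower in B-K562 (median 0.20 to 0.23), 132 to 215 and 76 to 83 in G-K562 (0.28 to 0.32), and 78 to 96 and 102 to 108 between the BASP1 lines (0.05 to 0.09). For RNA it gave 505 to 610 and 788 to 837, 482 to 538 and 549 to 588, and 1104 to 1156 and 981 to 1078, with medians of 0.07 to 0.09, -0.00020 to 0.01 and -0.10 to -0.09. The regions of the naming rule and the 4 tRNA members near TRC-GCA13-1 held 54 calls, of which 40 held under every alternative run and none changed sign. Those lost under some alternative were POU3F2, TRC-GCA13-1, ZNF502 and ZNF879 in B-K562 against V-K562, SCN9A, MRPS2, MRPL3, CHTF8 and TRC-GCA9-2 in G-K562 against V-K562, and PPP4R4, IGLV1-62, ZNF888, IFI27L2 and NDUFC2-KCTD14 between the BASP1 lines.

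The same replicate number in different lines carries no shared animal, day or batch in the labels, and the deviations of same-numbered libraries correlated at 0.0071 to 0.12 for ATAC-seq and -0.080 to 0.14 for RNA-seq, so the numbers did not pair the samples. With the replicate number as a block, members higher and lower numbered 27 and 42, 152 and 79, and 88 and 103, and RNA calls 566 and 823, 511 and 564, and 1128 and 1019. The block removed none of these 54 calls.

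Peak heights rest on few tags at the lowest members, and the equal tag number hides library depth. A start that lost its peak in any library is outside the set, so lowered and raised starts are undercounted, and changes above them in a line cannot be told apart from the pool that carries it.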
